A study of Mus musculus with 2 samples.

Results

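Natural killer (NK) cells read their targets through pairs of surface proteins, and 9 of the genes that encode the ligands and partners in these pairs are described here: Pvr, Nectin2, Cd226, Cd96, Cd48, Clec2d, Clec2i, Raet1e and Ulbp1. They were taken by symbol from the 31053 genes listed in the deposited single-cell tables. Leukocytes (live CD45+ cells) had been sorted on day 4 from melanomas grown in C57BL/6 hosts that were 8 weeks old, and profiled by droplet single-cell RNA-seq that counts transcript 3′ ends as unique molecular identifiers (UMIs). In the control library the mice were untreated. In the NK cell-depleted library the mice had received anti-NK1.1 (clone PK136, 200 µg) plus anti-asialo GM1 (30 µg) on days 0 and 2. The study's methods add that the cells of each library came from pooled tumors and that parental cells of the same Braf-mutant melanoma line, which have intact Ptgs genes, were spiked into each sample. According to the titles and the design text the implanted melanoma cells of both groups lacked the Ptgs genes (Ptgs1 and Ptgs2 in the methods), which encode cyclooxygenases, whereas the genotype label calls them wild type; this conflict could not be settled from the labels.

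Each group was 1 library, so no test between groups was possible, and every interval below is an exact 95% interval that covers counting error only, not the spread between mice or libraries. Cells with at least 500 UMIs, at least 200 genes and at most 10% mitochondrial UMIs were kept, with no upper limits: 5504 of 6115 control cells (median 4318 UMIs) and 4859 of 5536 NK cell-depleted cells (median 5156 UMIs). Of the barcodes kept, 5 occurred in both libraries. A cell was assigned to the class whose marker list had the largest share of its genes found, with at least 3 of them required, so a class is a range of marker counts and not a proven cell type. The control and NK cell-depleted libraries held, in this order, 136 and 270 melanoma-like cells, 3529 and 3272 monocyte/macrophage-like cells, 396 and 506 neutrophil-like cells, 223 and 262 conventional dendritic cell (DC)-like cells together with 68 and 57 migratory DC-like cells. Lymphocytes comprised 540 and 0 NK-like, 204 and 141 T-like, and 59 and 36 B-like cells. With 3 cells taken in place of 0, the NK-like share of the 4859 cells would be 0.0617%, which is not an exact interval. It covers only cells that met the marker rule. Cells with markers of several classes (52 and 40) were set apart, and 5.07% and 5.43% of cells stayed unassigned. Of the T-like cells, 31.4% and 26.2% carried exactly 3 T cell markers, the smallest number accepted, compared with 5.88% and 2.22% of the melanoma-like cells.

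The melanoma label rests on its marker list, and RNA of other lists was read beside it. Melanoma-like cells carried a median of 11 of the 12 listed melanoma genes in both libraries. This count is no check of the label, since the class was called by the same list. The leukocyte genes Ptprc, Coro1a, Laptm5 and Cd52 summed to 29.3 and 20.6 CPM (counts per 1000000 UMIs of the class) in them. In monocyte/macrophage-like cells they summed to 4473 and 5035. Of the melanocyte lineage genes, Pmel, Mlana, Dct, Tyrp1, Tyr, Sox10, Gpr143 and Mia were at 0 UMIs in both libraries, and Mitf had 26 and 50 UMIs. The lineage list as a whole was lower in melanoma-like cells (8.79 and 11.0 CPM) than in monocyte/macrophage-like cells (60.6 and 54.8 CPM). Melanoma-like cells also held RNA of the NK marker list at 161 and 198 CPM, of which Klra4, an Ly49 receptor gene, gave 157 and 196, and of the migratory DC list at 169 and 185 CPM, of which Fscn1, which encodes the actin-bundling protein fascin, gave 127 and 140. Spiked-in parental cells and implanted Ptgs-deficient cells that passed the CD45 sort cannot be told apart in this class. The class rule held no list for fibroblasts or endothelium, so such cells were not set apart from it. These cells were also deep (median 24374 and 25074 UMIs), and 107 of 136 and 217 of 270 of them exceed the upper limits of 15000 UMIs or 4000 genes that the study's methods apply.

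PVR (CD155) and nectin-2 (CD112) are adhesion proteins on stressed or transformed cells and on antigen-presenting cells. Both engage DNAM-1, the activating receptor encoded by Cd226, and PVR is also bound by CD96 and TIGIT, which compete for it. CD48 is the ligand of the SLAM family receptor 2B4 (Cd244) on NK cells. Clec2d and Clec2i encode C-type lectin-related proteins (Clr-b and Clr-g), of which Clr-b is the ligand of the inhibitory receptor NKR-P1B and Clr-g binds NKR-P1F. Raet1e and Ulbp1 (MULT-1) belong to the family of ligands of NKG2D, the activating receptor encoded by Klrk1, which are typically low on resting cells and increased by stress or proliferation.

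RefSeq promoters of GRCm38.p6, the build of the reads, were found for 7 of the 9 genes, and 4 are shown because the results turn on the class patterns of these genes: a melanoma and migratory DC ligand, a lymphocyte receptor, a leukocyte lectin and a ligand that followed cell division. Each runs 5′ to 3′ on the strand of the gene, from 250 bases before to 50 bases after its start, and capitals mark matches to a searched motif. The motifs, searched on both strands, were the GC box GGGCGG, the cyclic AMP response element TGACGTCA, the RUNX core TGTGGT, the interferon response element core (GAAA followed after NN by another GAAA), the CCAAT box and the cell cycle homology region TTTGAA.

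Nectin2 (chr7:19749524-19749823, minus strand): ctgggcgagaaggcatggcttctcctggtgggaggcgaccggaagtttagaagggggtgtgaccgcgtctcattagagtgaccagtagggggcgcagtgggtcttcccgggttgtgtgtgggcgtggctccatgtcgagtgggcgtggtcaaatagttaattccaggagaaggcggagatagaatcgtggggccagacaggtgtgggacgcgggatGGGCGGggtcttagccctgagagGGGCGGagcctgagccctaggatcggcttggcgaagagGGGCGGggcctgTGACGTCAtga
Cd96 (chr16:46120199-46120498, minus strand): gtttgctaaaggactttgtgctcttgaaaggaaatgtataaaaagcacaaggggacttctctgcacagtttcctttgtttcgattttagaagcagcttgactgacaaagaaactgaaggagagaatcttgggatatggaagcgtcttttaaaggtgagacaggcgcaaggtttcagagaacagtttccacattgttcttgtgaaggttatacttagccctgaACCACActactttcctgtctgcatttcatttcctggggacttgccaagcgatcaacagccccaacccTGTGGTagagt
Clec2d (chr6:129180365-129180664, plus strand): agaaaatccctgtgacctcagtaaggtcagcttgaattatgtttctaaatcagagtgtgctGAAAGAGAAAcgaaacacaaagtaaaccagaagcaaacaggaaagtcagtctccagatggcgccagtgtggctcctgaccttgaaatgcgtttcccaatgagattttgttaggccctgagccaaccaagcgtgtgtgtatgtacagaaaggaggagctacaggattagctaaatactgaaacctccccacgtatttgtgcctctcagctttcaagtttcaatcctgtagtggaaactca
Ulbp1 (chr10:7473428-7473727, minus strand): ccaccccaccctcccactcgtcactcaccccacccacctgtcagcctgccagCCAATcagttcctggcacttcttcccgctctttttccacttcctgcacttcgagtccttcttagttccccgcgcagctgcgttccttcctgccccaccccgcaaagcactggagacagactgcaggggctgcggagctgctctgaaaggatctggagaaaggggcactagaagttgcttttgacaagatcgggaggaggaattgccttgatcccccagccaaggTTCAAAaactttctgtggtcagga

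In the Nectin2 window, GC boxes began 34 and 11 bases before and 27 bases after the start, followed by a cyclic AMP response element 39 bases after it. GC boxes were found in 35.7% and cyclic AMP response elements in 1.79% of all 32851 promoters in the table. The Cd96 window held a RUNX core on the opposite strand 28 bases before the start and another on the gene's strand 39 bases after it, a motif that 16.8% of promoters hold. In the Clec2d window the interferon response element core began 189 bases before the start, and 3.44% of promoters hold these letters. The Ulbp1 window, whose start lies inside the annotated gene, held a CCAAT box 198 bases before the start (37.4% of promoters) and the cell cycle homology letters on the opposite strand 26 bases after it (17.9% of promoters). These matches describe letters in a window and not sites in use. Of the matches outside capitals, a CCAAT lay 95 bases before the Clec2d start and a RUNX core 39 bases after the Ulbp1 start. The same motifs occurred in windows not shown. Cd48 and Clec2i also held the cell cycle homology letters, Cd48 a RUNX core, and Clec2i and Raet1e GC boxes and CCAAT boxes.

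Levels are given as CPM within a class, first for control and then for NK cell-depleted cells. The 9 genes divided into a ligand of melanoma-like and myeloid cells (Pvr), a ligand of melanoma-like and migratory DC-like cells (Nectin2) and lymphocyte receptors (Cd226, Cd96). The others were leukocyte genes close to background in melanoma-like cells (Cd48, Clec2i), a lectin of most leukocytes (Clec2d) and NKG2D ligands (Raet1e, Ulbp1). The plot of levels by class shows these groups. The annotated Pvr gene spans chr7:19903578-19921143 (ENSMUSG00000040511) and Nectin2 lies on the same chromosome at chr7:19716644-19749573 (ENSMUSG00000062300). Cd48 lies at chr1:171681245-171705258 (ENSMUSG00000015355), Cd96 at chr16:46035652-46120248 (ENSMUSG00000022657) and Clec2d at chr6:129180615-129186535 (ENSMUSG00000030157). Clec2i lies at chr6:128887587-128898168 (ENSMUSG00000030365), Raet1e at chr10:22158542-22189697 (ENSMUSG00000053219) and Ulbp1 at chr10:7444873-7473641 (ENSMUSG00000079685). Cd226 (ENSMUSG00000034028) is named without a position. UMIs were counted over whole annotated genes, so no exon or isoform is resolved.

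**Figure D1:**
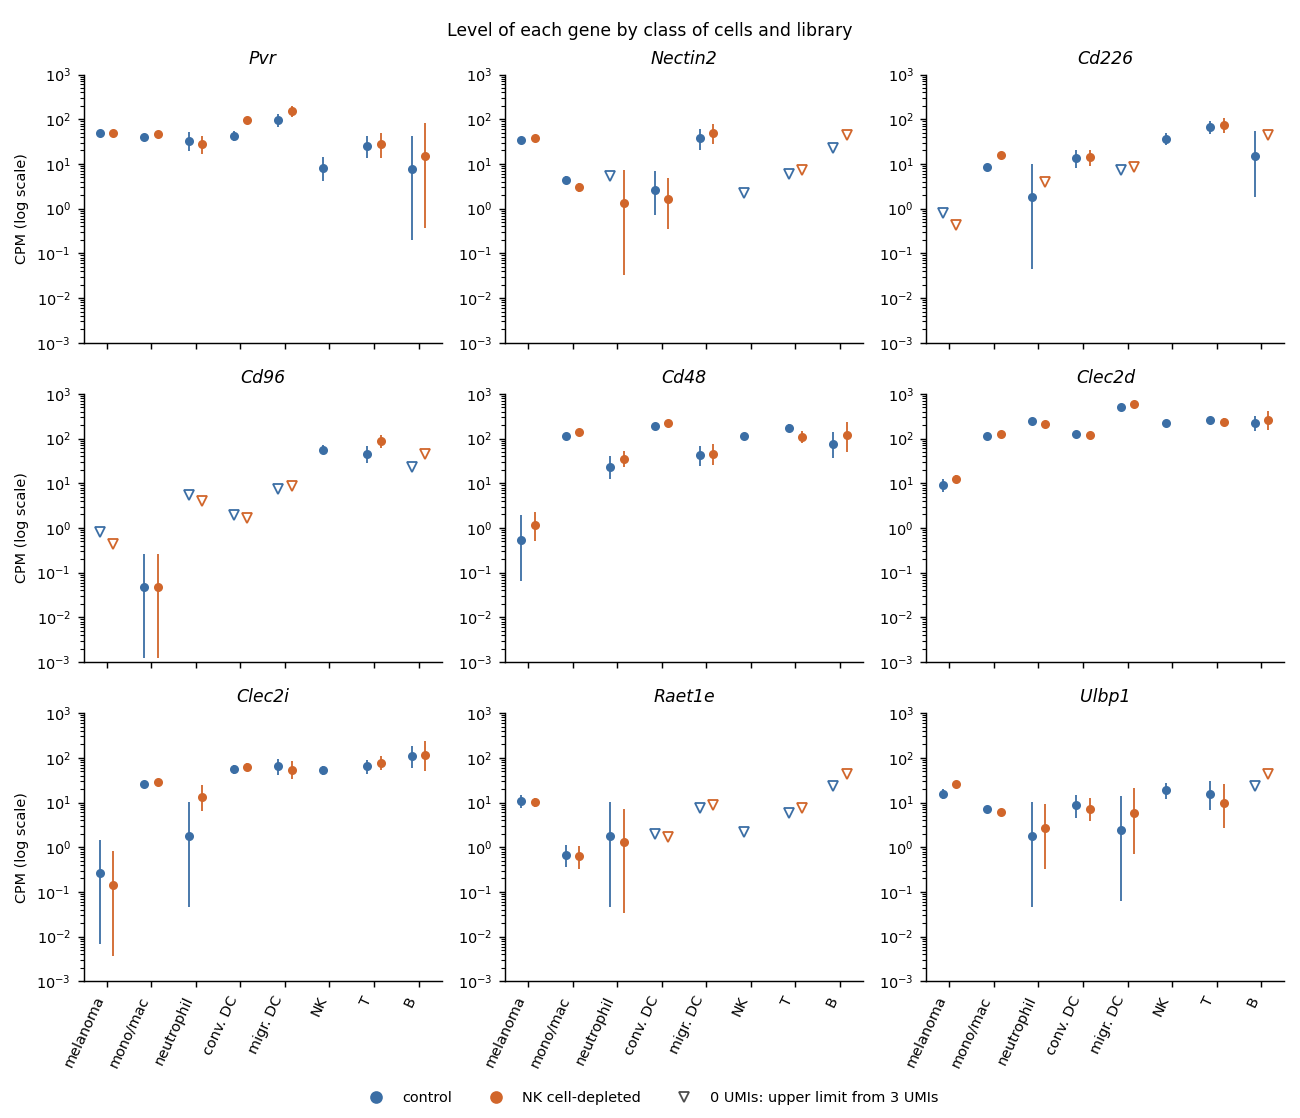
Level of each of the 9 genes (y axis, CPM on a log scale) in 8 cell classes (x axis) of the control library (blue) and the NK cell-depleted library (orange). Points carry exact 95% Poisson intervals of counting error and open triangles mark the upper limit from 3 UMIs where 0 were counted. Raet1e has its highest counted level in melanoma-like cells (10.7 and 10.2), though the upper limits of B-like cells lie above it. Clec2d stands out in migratory DC-like cells (497 and 596) and Cd96 in NK-like and T-like cells (44.6 to 87.5).

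Within a class, a gene was counted as different between the libraries when it was at least 1.5-fold apart, its counting interval excluded a ratio of 1 and it had at least 20 UMIs over both libraries in the class. In melanoma-like cells 1 of 5 members with enough UMIs met this rule (Ulbp1), beside 5.8% of the 10455 genes compared, of which 515 were higher in the NK cell-depleted library and 91 in control. In monocyte/macrophage-like cells 1 of 8 members did (Cd226), beside 8.69% of 11947 genes. In conventional DC-like cells it was 1 of 6 (Pvr), beside 8.64% of 8657 genes, and in migratory DC-like cells 1 of 5 (Pvr), beside 11.4% of 4409 genes. In neutrophil-like cells 0 of 3 members met it, beside 9.52% of 5450 genes, and in T-like cells 2 of 6 did (Cd96 and Cd48), beside 10.2% of 5841 genes. With 3 to 8 members in each class, these counts do not set the members apart from the background of their class.

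**Figure D2:**
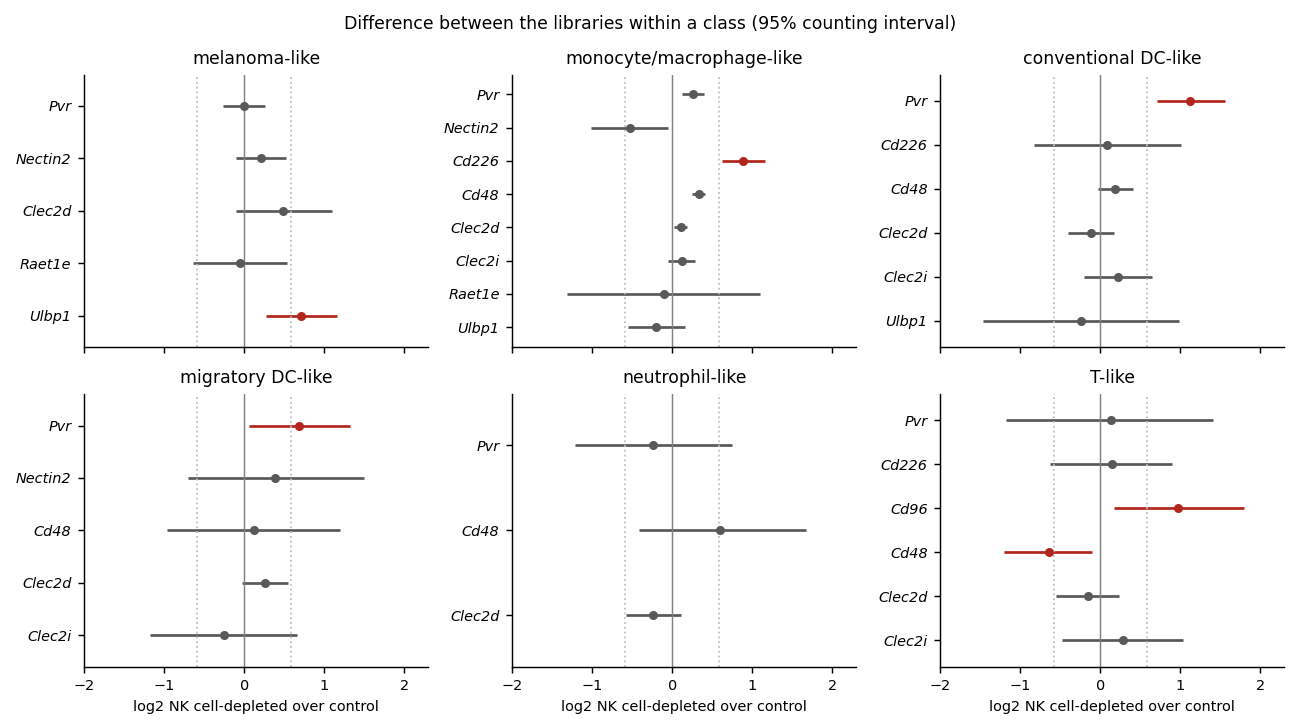
Log2 ratio of NK cell-depleted over control (x axis) for each gene with enough UMIs in 6 classes, with exact 95% counting intervals. Dotted lines mark 1.5-fold either way, and red points lie past 1.5-fold with an interval that excludes a ratio of 1: Ulbp1 in melanoma-like, Cd226 in monocyte/macrophage-like, Pvr in both DC-like classes, and Cd96 and Cd48 in T-like cells.

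Pvr, the ligand of DNAM-1, CD96 and TIGIT, was found in melanoma-like cells at 50.1 CPM in control (188 UMIs) and 50.1 in NK cell-depleted cells (347 UMIs). The ratio of NK cell-depleted over control was 1.0 (0.835 to 1.20), so a difference of more than 1.20-fold in either direction lies outside the counting interval. In conventional DC-like cells, Pvr was 43.1 in control (65 UMIs) and 94.0 in NK cell-depleted cells (168 UMIs). This is 2.18-fold higher in the NK cell-depleted library (1.63 to 2.95), the largest Pvr ratio of the 6 classes compared. Migratory DC-like cells held the highest Pvr of the 8 classes in both libraries, at 94.4 (38 UMIs) and 152 (53 UMIs), a 1.61-fold difference (1.04 to 2.51). In monocyte/macrophage-like cells Pvr was 40.0 and 47.8 (838 and 1002 UMIs), a ratio of 1.20 (1.09 to 1.31). The difference between libraries thus lay beyond counting error in all 3 of these myeloid classes, and past 1.5-fold in both DC classes. For migratory DC-like cells the rule was no longer met with a mitochondrial limit of 5%, or with the median gene of the class set to a ratio of 1.

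In control cells, Pvr in melanoma-like, conventional DC-like, monocyte/macrophage-like and neutrophil-like cells (32.6) formed a run in which neighbors did not differ beyond counting error, although melanoma-like cells stood 1.25-fold above monocyte/macrophage-like cells (1.06 to 1.47), which are not neighbors in it. In the NK cell-depleted library, conventional DC-like cells stood 1.88-fold above melanoma-like cells (1.55 to 2.26). Pvr was lowest in control NK-like cells, at 8.18 (11 UMIs, interval 4.08 to 14.6), and B-like cells, with 1 UMI in each library. Monocyte/macrophage markers in NK-like cells corresponded to 11.7% of monocyte/macrophage RNA, which would carry a Pvr level of 4.66, and its part in the NK-like value was not tested. In T-like cells Pvr was 25.2 and 27.5 (13 and 11 UMIs).

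Among conventional DC-like cells, Pvr was higher in those with Cd209a than in those with Xcr1 or Clec9a, markers of the cross-presenting DC subset. Cells with Cd209a held 49.8 in control (54 UMIs in 161 cells) and 118 in NK cell-depleted cells (139 UMIs in 176 cells), a ratio of 2.36 (1.71 to 3.30). Cells with Xcr1 or Clec9a held 15.8 (5 UMIs in 44 cells) and 32.8 (16 UMIs in 66 cells). The Cd209a cells were above the Xcr1 or Clec9a cells 3.16-fold in control (1.27 to 10.1) and 3.59-fold in the NK cell-depleted library (2.14 to 6.46). After each cell was thinned to 2000 UMIs, the share of conventional DC-like cells with a Pvr UMI was 8.14% in control and 15.8% in NK cell-depleted cells. The corresponding share was 12.9% and 33.3% of migratory DC-like cells, 7.40% and 8.48% of monocyte/macrophage-like cells, and 8.06% and 5.16% of melanoma-like cells, against 2.33% of control NK-like cells. The cells that reached 2000 UMIs were 221 of 223 and 259 of 262 conventional DC-like cells, 124 of 136 and 252 of 270 melanoma-like cells and 300 of 540 NK-like cells (median 2134.5 UMIs). Without thinning, 53.7% and 61.1% of the deeper melanoma-like cells held a Pvr UMI.

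Within the monocyte/macrophage-like class, Pvr did not differ between libraries beyond counting error in cells rich in C1q genes, markers of mature macrophages, at 39.6 and 41.3 (1.04, 0.915 to 1.19). Cells rich in Ly6c2, a marker of inflammatory monocytes, held 46.5 and 59.1 (1.27, 0.994 to 1.64). In cells low in both, Pvr was 38.7 and 52.0 (1.35, 1.14 to 1.59). The makeup of the class moved with the library, since 396 control and 730 NK cell-depleted cells were rich in Ly6c2 and 1870 and 1394 were rich in C1q genes.

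Nectin2, the second DNAM-1 ligand, was largely a gene of melanoma-like and migratory DC-like cells. It was 33.6 (126 UMIs) and 38.7 (268 UMIs) in melanoma-like cells, a ratio of 1.15 (0.929 to 1.44). Migratory DC-like cells held 37.3 and 48.7 from only 15 and 17 UMIs, which did not differ from melanoma-like cells beyond counting error in either library. Monocyte/macrophage-like cells held 4.34 (91 UMIs) and 3.01 (63 UMIs), so the melanoma-like level was 7.74-fold higher in control (5.86 to 10.2) and 12.9-fold higher in the NK cell-depleted library (9.74 to 17.2). In this class the NK cell-depleted level was 0.693 of control (0.495 to 0.966), which was below control but did not reach 1.5-fold. No Nectin2 UMI was counted in NK-like, T-like or B-like cells. The control melanoma-like level was 15.0-fold that of NK-like cells when 3 UMIs were taken as the floor of the class. The lower limit of the interval against 0 UMIs was 12.1. The melanoma-like cells, 2.47% and 5.56% of all kept cells, supplied 51.0% and 64.0% of all Nectin2 UMIs (247 and 419).

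**Figure D3:**
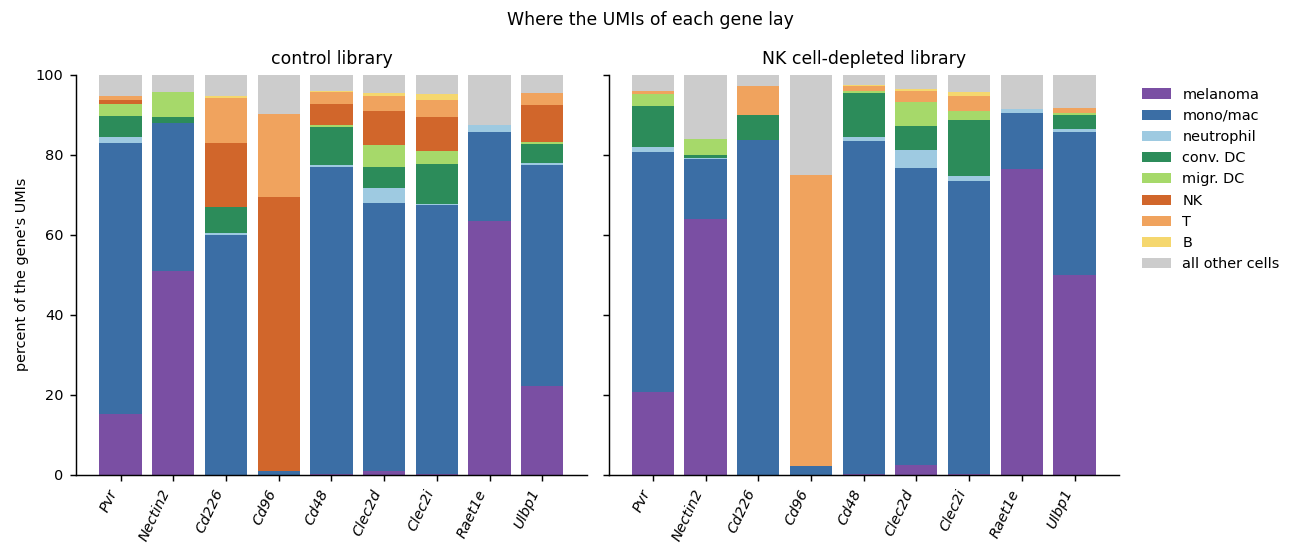
Percent of each gene's UMIs (y axis, 0 to 100%) that came from each cell class, as stacked bars for both libraries. Melanoma-like cells supplied 63.5% and 76.3% of Raet1e and 51.0% and 64.0% of Nectin2 UMIs, whereas monocyte/macrophage-like cells supplied 76.9% and 83.3% of Cd48 UMIs. The shares describe sorted libraries with spiked-in melanoma cells and not the tumors.

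The NK cell-depleted library held more melanoma-like cells and no NK-like cells, and the stacked plot gives each gene's UMI shares beside that makeup. Within these libraries, monocyte/macrophage-like cells were the larger source of Pvr, with 67.7% and 60% of its UMIs against 15.2% and 20.8% from melanoma-like cells. For Ulbp1, melanoma-like cells supplied 22.2% and 49.9% of the UMIs. Because cells were sorted for CD45 and melanoma cells were spiked in, all these shares describe the libraries and not the tumors.

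Cd226, which encodes the activating receptor DNAM-1, was highest in lymphocytes. T-like cells held 65.9 (34 UMIs) and 72.5 (29 UMIs), with a ratio of 1.1 (0.647 to 1.86), and control NK-like cells held 36.4 (49 UMIs). The T-like level was 1.81-fold above the NK-like level in control (1.13 to 2.86). No Cd226 UMI was counted in melanoma-like or migratory DC-like cells of either library. Monocyte/macrophage-like cells held a lower level that was 1.85-fold higher in the NK cell-depleted library (1.54 to 2.23), at 8.72 in control (183 UMIs) and 16.1 in NK cell-depleted cells (338 UMIs). This class, the largest of the 8, supplied 60% and 83.7% of all Cd226 UMIs, against 16.1% from NK-like cells in control and 11.1% and 7.2% from T-like cells.

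The Cd226 UMIs of the monocyte/macrophage-like class were concentrated in few cells. The 44 control cells with at least 2 Cd226 UMIs were used to pick the 8 genes most enriched in them, a choice made after the values were seen. These companion genes included Retnla and Lyz1, a resistin-like factor and a lysozyme, Aldh1a2, which makes retinoic acid, the cytokine gene Il6, and also Upb1, Gfra2, Fgfr1 and Rem1. Their levels in those cells were 11.5-fold (Fgfr1) to 32.6-fold (Upb1) those of cells without Cd226 in control. In the NK cell-depleted library, which was not used to pick them, the same genes were 7.22-fold (Fgfr1) to 19.7-fold (Aldh1a2) higher in the 83 cells with at least 2 Cd226 UMIs. The cells with Cd226 were deeper, with median UMIs of 12025 against 5129 in control and 12877 against 5520 in NK cell-depleted cells.

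Cells with at least 3 of the 8 companion genes made up 5.55% of control (196 cells) and 8.92% of NK cell-depleted (292 cells) monocyte/macrophage-like cells. Cd226 was 64.2 and 81.6 in these cells, beside 65.9 and 72.5 in T-like cells, and 2.65 and 3.91 in the remaining cells of the class. The control values of this split rest on the cells in which the genes were picked. The ratio of the libraries was 1.27 (1.03 to 1.58) among the companion-positive cells and 1.48 (1.01 to 2.17) among the rest. The interval among the rest includes the 1.85-fold of the whole class, and since the companion genes were picked for their level in cells with Cd226, the split is not independent of Cd226. The class median was 5643.5 UMIs in the NK cell-depleted library against 5227. Companion-positive cells were deeper than the rest, with medians of 10315.5 against 5074 UMIs in control and 10959.5 against 5445.5 in the NK cell-depleted library. Since the split counts genes found, deeper cells pass it more easily, and the part of depth in the shares of 5.55% and 8.92% was not tested. Split by macrophage markers instead, Cd226 was 6.68 and 14.8 in C1q-rich cells (2.22, 1.69 to 2.92), and 14.8 and 26.5 in cells low in both C1q and Ly6c2 (1.79, 1.38 to 2.32). Ly6c2-rich cells held 1.55 and 3.76, from 3 and 15 UMIs.

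**Figure D4:**
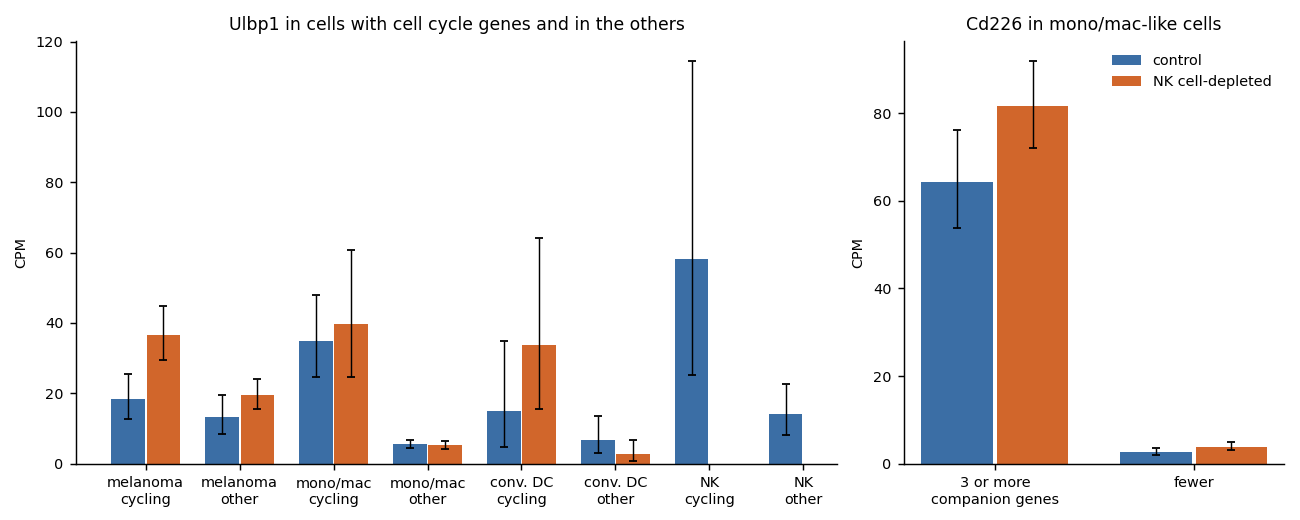
Left, Ulbp1 level (y axis, CPM) in cells with at least 3 of 10 cell cycle genes and in the other cells of 4 classes, with NK-like cells in the control library alone. Right, Cd226 level in monocyte/macrophage-like cells with at least 3 of 8 companion genes and in the other cells. Bars show each library with exact 95% Poisson intervals of counting error. Ulbp1 in monocyte/macrophage-like cells was 34.9 and 39.7 with the cell cycle genes and 5.48 and 5.24 without them, and Cd226 was 64.2 and 81.6 with the companion genes and 2.65 and 3.91 without them.

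In conventional DC-like cells, Cd226 was 13.3 and 14.0 (20 and 25 UMIs). The Cd209a cells held 12.9 and 5.08 (14 and 6 UMIs) and the Xcr1 or Clec9a cells 18.9 and 32.8 (6 and 16 UMIs). The counts are too few to place the libraries apart within either subset, with ratios of 0.393 (0.124 to 1.09) and 1.73 (0.643 to 5.40).

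Cd96, a receptor of NK and T cells that binds PVR, was confined to these lymphocytes among the 8 classes apart from single UMIs in monocyte/macrophage-like cells (1 in each library). Outside the 8 classes, unassigned cells held 2 of 111 Cd96 UMIs in control and 10 of 48 (20.8%) in the NK cell-depleted library. Cells with markers of several classes held 8 and 2. Control NK-like cells held 56.5 (76 UMIs, 44.5 to 70.7). This was 70.7-fold the level of melanoma-like cells taken at the floor of 3 UMIs, with a lower limit against 0 UMIs of 56.1. T-like cells held 44.6 in control (23 UMIs) and 87.5 in the NK cell-depleted library (35 UMIs). The NK cell-depleted level was 1.96-fold that of control (1.13 to 3.48). In control the T-like level was 0.789 of the NK-like level (0.472 to 1.27), which is within counting error. Among T-like cells with CD4 subset markers (Cd4, Foxp3, Icos or Ctla4), Cd96 was 40.2 and 94.3 (12 and 24 UMIs, 2.34, 1.13 to 5.14), and in those with CD8 markers it was 53.6 and 94.0 from 4 and 6 UMIs. The T-like cells differed in makeup, with 33 γδ cells in control (16.2%) and 9 in NK cell-depleted cells (6.38%). The summed NK markers in T-like cells were 568 and 253 CPM, against 12487 in NK-like cells, and the part of NK RNA in the Cd96 values of T-like cells was not tested. With a mitochondrial limit of 5%, Cd96 in T-like cells rested on 8 UMIs in each library and no longer met the 1.5-fold rule.

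Cd48, the ligand of 2B4, was found throughout the leukocytes and was low in melanoma-like cells. Conventional DC-like cells held 192 (290 UMIs) and 219 (391 UMIs), a ratio of 1.14 (0.976 to 1.33). Monocyte/macrophage-like cells held 111 (2336 UMIs) and 140 (2933 UMIs), 1.26-fold higher in the NK cell-depleted library (1.19 to 1.33). The direction was shared by C1q-rich cells (118 and 144), Ly6c2-rich cells (126 and 167) and cells low in both (94.6 and 116). Melanoma-like cells held only 2 and 8 Cd48 UMIs, or 0.533 and 1.15 CPM. The monocyte/macrophage RNA in control melanoma-like cells, 0.549% by marker genes, would carry 0.611. In the NK cell-depleted library 0.339% would carry 0.474, below the interval of the measured value (lower limit 0.499). The monocyte/macrophage-like level was 209-fold (57.8 to 1730) and 121-fold (61.5 to 281) that of melanoma-like cells.

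In T-like cells Cd48 went in the other direction, at 172 in control (89 UMIs) and 110 in NK cell-depleted cells (44 UMIs). The ratio was 0.638 (0.434 to 0.926). The CD8 cells held 201 and 31.3 from 15 and 2 UMIs, whereas the CD4 cells held 158 and 141 (47 and 36 UMIs, 0.898, 0.565 to 1.42) and the γδ cells 236 and 241 (20 and 6 UMIs). Cells without subset markers held 7 and 0 UMIs. The intervals of the CD4 and γδ ratios (0.336 to 2.64 in γδ cells) include the ratio of the whole class, so these counts do not place the difference in any subset. Cd48 no longer met the rule when 4 T cell markers were required or with a mitochondrial limit of 5%. The monocyte/macrophage RNA in T-like cells was 11.6% and 3.96%, and its part in the difference was not tested. Control NK-like cells held 116 (156 UMIs), 1.49-fold below T-like cells (interval of the T-like over NK-like ratio 1.13 to 1.94). In neutrophil-like cells Cd48 was 23.5 and 35.5 (13 and 27 UMIs), and the monocyte/macrophage RNA in these cells would carry 23.3 in control and 22.1 in NK cell-depleted cells, the latter below the lower limit of the measured value (23.4).

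Clec2d, which encodes the NKR-P1B ligand Clr-b, was highest in migratory DC-like cells, at 497 (200 UMIs) and 596 (208 UMIs), a ratio of 1.20 (0.984 to 1.46). This was 4.33-fold (3.73 to 5.00) and 4.82-fold (4.17 to 5.56) the level of monocyte/macrophage-like cells, which held 115 and 124 (2408 and 2591 UMIs). Of the other leukocytes, T-like cells held 260 and 233, neutrophil-like cells 243 and 206, control NK-like cells 224, B-like cells 223 and 266, and conventional DC-like cells 129 and 118. Melanoma-like cells held 9.06 (34 UMIs) and 12.7 (88 UMIs), with a ratio of 1.40 (0.934 to 2.15). They lay 12.7-fold (9.05 to 18.3) and 9.74-fold (7.87 to 12.2) below monocyte/macrophage-like cells, in contrast to Pvr and Nectin2. Among cells thinned to 2000 UMIs, 62.9% and 74.5% of migratory DC-like cells had a Clec2d UMI, against 35.3% of NK-like, 19.2% and 20.7% of monocyte/macrophage-like and 0.806% and 1.19% of melanoma-like cells. The migratory DC-like lead held in both libraries, and none of the classes differed by 1.5-fold between the libraries.

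Clec2i, which encodes Clr-g, was found in B-like (108 and 118, 14 and 8 UMIs), migratory DC-like (64.6 and 54.5), T-like (63.9 and 77.5), conventional DC-like (55.0 and 63.8) and control NK-like cells (52.8, 71 UMIs). In control these neighbors did not differ beyond counting error. Monocyte/macrophage-like cells held 26.3 and 28.6 (551 and 598 UMIs, ratio 1.09, 0.966 to 1.22), and control NK-like cells lay 2.01-fold above them (1.55 to 2.58). Within conventional DC-like cells the Cd209a cells held 68.3 and 85.5 and the Xcr1 or Clec9a cells 9.46 and 16.4 (3 and 8 UMIs). Melanoma-like cells held 1 Clec2i UMI in each library. Of the 1172 stretches of 50 bases tested in the last 500 transcript bases of Clec2i, 1.62% also occur in Clec2g.

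Raet1e, an NKG2D ligand, drew a larger share of its UMIs from melanoma-like cells (63.5% and 76.3%) than any other of the 9 genes. It was 10.7 in control (40 UMIs) and 10.2 in the NK cell-depleted library (71 UMIs), a ratio of 0.962 (0.644 to 1.45). Monocyte/macrophage-like cells held 0.667 and 0.621 (14 and 13 UMIs), so melanoma-like cells were 16.0-fold (8.50 to 31.8) and 16.5-fold (9.07 to 32.5) higher. None was counted in either DC-like class or in NK-like, T-like or B-like cells, and 1 UMI was counted in neutrophil-like cells of each library. The control melanoma-like level was 4.78-fold that of NK-like cells taken at the floor of 3 UMIs (lower limit against 0 UMIs 3.71). Against T-like cells at this floor it was 1.83-fold and 1.37-fold. The interval of migratory DC-like over melanoma-like cells reached 0.901 and 1.06, so the small classes are not all set apart. In B-like cells, with 129916 and 67658 UMIs in all, the floor of 3 UMIs lies above the melanoma-like level in both libraries. Above neutrophil-like cells the control interval, 0.997 to 238, included 1. Of the 50-base stretches near the Raet1e 3′ end, 598 of 1086 (55.1%) also occur in Raet1d, so reads of these genes may have been split or dropped and the level is uncertain. Raet1d itself had 2 and 0 UMIs in melanoma-like cells and 20 and 11 in monocyte/macrophage-like cells.

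Ulbp1, the other NKG2D ligand, was spread more widely. It was 15.7 in control melanoma-like cells (59 UMIs) and 25.7 in NK cell-depleted ones (178 UMIs). The ratio was 1.64 (1.21 to 2.23). The median log2 ratio of control over NK cell-depleted cells was -0.15 over all genes of this class, and relative to that median the Ulbp1 ratio was no longer past 1.5-fold. With the study's upper limits applied, 6 and 7 UMIs remained and the direction turned, as it also did after thinning to 2000 UMIs (6 and 7 UMIs). Control NK-like cells held 18.6 (25 UMIs) and T-like cells 15.5 and 10.0 (8 and 4 UMIs), and in control the NK-like, melanoma-like and T-like levels did not differ beyond counting error. Monocyte/macrophage-like cells held 7.01 and 6.11 (147 and 128 UMIs), a ratio of 0.872 (0.683 to 1.11). The melanoma-like level was 2.24-fold (1.63 to 3.05) and 4.20-fold (3.33 to 5.32) that of monocyte/macrophage-like cells.

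Ulbp1 followed cell division genes in leukocytes. In monocyte/macrophage-like cells the genes most enriched in the 20 control and 19 NK cell-depleted cells with at least 2 Ulbp1 UMIs, picked in control after the values were seen, were Pclaf, Top2a, Ube2c, Prc1, Mki67, Rrm2, Birc5 and Nusap1, all genes of DNA replication or mitosis. When cells were split by 10 cell cycle genes, also chosen after the values were seen, those with at least 3 of them held 34.9 and 39.7, against 5.48 and 5.24 in the other cells. These are ratios of 6.37 (4.28 to 9.29) and 7.58 (4.51 to 12.2). In control NK-like cells the values were 58.1 and 14.1 (4.13, 1.54 to 10.1). In conventional DC-like cells they were 15.0 and 6.81 in control (2.20, 0.566 to 7.62) and 33.8 and 2.63 in the NK cell-depleted library (12.9, 3.59 to 57.2). The split is by number of genes found, so deeper cells enter the cycling group more easily. Most of the 10 genes were also among those picked for their enrichment in control monocyte/macrophage-like or melanoma-like cells with Ulbp1. The control values of the split in these 2 classes are therefore not independent of Ulbp1.

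In melanoma-like cells the split was smaller, at 18.3 and 13.2 in control (1.39, 0.805 to 2.43) and 36.6 and 19.5 in the NK cell-depleted library (1.88, 1.38 to 2.55). The companion genes picked there were also mitotic (Cenpf, Ccna2, Ccnb1, Ube2c, Cdc20, Aspm, Dlgap5 and Birc5). Cycling cells made up 34.6% of control (26.6 to 43.2) and 25.9% of NK cell-depleted (20.8 to 31.6) melanoma-like cells, and these intervals overlap. The ratio of the libraries for Ulbp1 was 2.00 in cycling cells (1.33 to 3.05, 34 and 92 UMIs) and 1.48 in the others (25 and 86 UMIs), where the interval of 0.938 to 2.41 includes 1. The cycling melanoma-like cells were deeper, with a median of 33070 UMIs against 21358 in control.

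Other members moved with the cell cycle split in other ways. In monocyte/macrophage-like cells Pvr was lower in cycling cells, at 13.8 and 13.2 against 41.4 and 48.7 (0.333, 0.185 to 0.552, and 0.272, 0.109 to 0.562). Clec2d was also lower there, at 65.2 and 81.4 against 118 and 125. Cd226 was higher, at 23.9 and 39.7 against 7.90 and 15.5. In melanoma-like cells Nectin2 was lower in cycling cells, at 26.9 and 28.6 against 40.1 and 44.4 (0.672, 0.461 to 0.973, and 0.644, 0.485 to 0.848).

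The other genes of these pathways were read from a list of 43 ligands, receptors and adaptors. In melanoma-like cells, 9 had enough UMIs and 2 met the rule, beside 5.8% of all genes compared in the class. Slamf1, a self-binding SLAM receptor, was 1.86 and 6.78 (7 and 47 UMIs, 3.64, 1.63 to 9.54), and Tyrobp, the adaptor DAP12 of myeloid and NK cells, was 9.85 and 4.62 (0.469, 0.283 to 0.773). The Tyrobp value stands beside the monocyte/macrophage RNA of these cells, 0.549% and 0.339%, in a class whose own Tyrobp was 1395 and 1146. The part of this RNA in the Tyrobp levels and in their difference was not tested. The related adhesion ligands Nectin3 (86.0 and 108) and Cadm1 (37.6 and 41.6), the latter a ligand of the receptor CRTAM, were found in melanoma-like cells, as was Cd47 (279 and 294), which signals to phagocytes.

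In monocyte/macrophage-like cells 29 listed genes had enough UMIs and 5 met the rule, beside 8.69% of all genes compared. Lower in the NK cell-depleted library were Tnfrsf9, the costimulatory receptor 4-1BB, at 23.8 and 8.55 (0.359, 0.301 to 0.427), Klrb1b, the inhibitory receptor for Clr-b, at 24.6 and 14.9 (0.605, 0.524 to 0.698), Slamf6 at 5.44 and 3.58, and Klrb1c at 1.53 and 0.525. Klrb1c encodes NK1.1, the target of the depleting antibody, is an NK marker of the class rule and stands at 646 in NK-like cells. Higher was Itgal, a chain of the integrin LFA-1, at 75.5 and 119 (1.58, 1.48 to 1.68). Cd244, the 2B4 receptor that binds CD48, was 56.5 and 57.6 here and 251 in control NK-like cells. The median log2 ratio of control over NK cell-depleted cells was 0.14 over the 29 genes and -0.01 over all genes of the class.

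In T-like cells 17 listed genes had enough UMIs and 6 met the rule, beside 10.2% of all genes compared. Klrk1, which encodes NKG2D, was 116 and 55.0 (0.473, 0.276 to 0.783), Klrc1, the inhibitory NKG2A receptor, 58.1 and 12.5 (0.215, 0.0652 to 0.560), and Tnfrsf9 141 and 70.0 (0.495, 0.308 to 0.775). Tyrobp was 60.1 and 25.0, and H2-T23, which encodes the NKG2A ligand Qa-1, was 397 and 250 (0.630, 0.491 to 0.804). Slamf6, another SLAM receptor, was higher, at 101 and 178 (1.76, 1.22 to 2.57). The median log2 ratio was 0.52 over the 17 genes and 0.03 over all genes of the class, beside the NK markers of 568 and 253 CPM in these cells, whose part was not tested. Of the other classes, 2 of 18 listed genes met the rule in conventional DC-like cells (8.64% of all genes compared), 4 of 14 in migratory DC-like cells (11.4%) and 0 of 8 in neutrophil-like cells (9.52%).

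On the receptor side, control NK-like cells held Klrk1 at 685, its adaptors Hcst at 643 and Tyrobp at 1446, Klrb1b at 278, Klrb1f, the Clr-g receptor, at 161, and Itgal at 816. The PVR and nectin-2 receptors other than Cd226 and Cd96 were scarce, with 2 UMIs each of Tigit and Pvrig in NK-like cells and 1 and 2 UMIs of Tigit in T-like cells. Crtam, which binds the Cadm1 product, was 30.5 in NK-like cells. The SLAM adaptor Sh2d1a stood at 107 in NK-like and at 50.4 and 42.5 in T-like cells. Of the remaining partner groups, the highest members in monocyte/macrophage-like cells were Nectin4 (17.2 and 15.6) in control and Nectin1 (16.0 and 16.9) in NK cell-depleted cells, Cd84 (279 and 277), Sh2d1b1 (22.3 and 23.4), Clec2g (9.63 and 6.83) and Cd47 (465 and 522). In T-like cells they were Nectin1 (9.69 and 7.50), Cd84 (211 and 143) in control and Cd2 (161 and 213) in NK cell-depleted cells, Klrb1f (23.2 and 5.00), Hcst (529 and 355), Cd47 (529 and 580) and Itgal (496 and 345). Cd47 stood at 746 in NK-like cells.

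**Figure D5:**
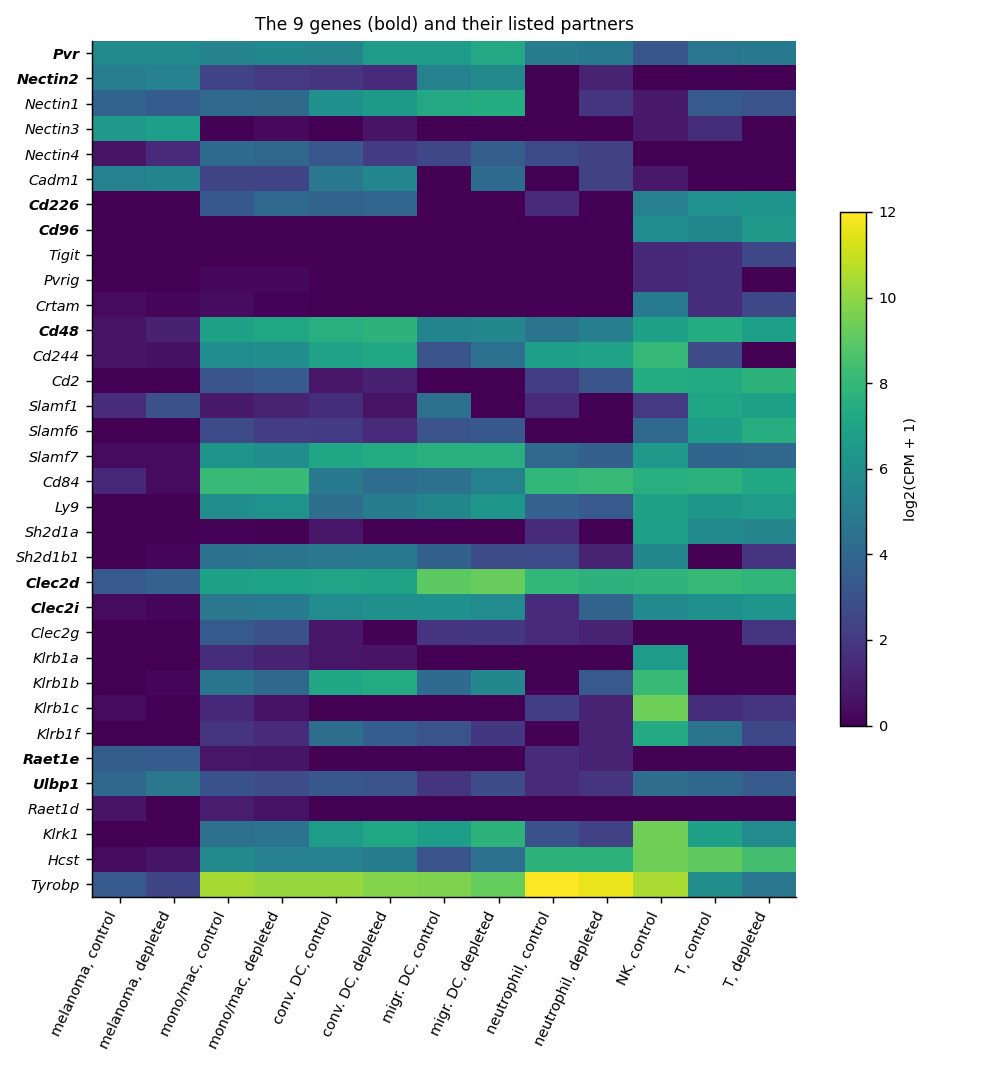
Heat map of log2(CPM + 1) for the 9 genes (bold) and their listed partners (rows) in 13 class and library columns. The NKG2D and NKR-P1 receptors are highest in the NK-like column of the control library (Klrk1 685, Klrb1c 646), whereas Nectin2 and Raet1e are highest in melanoma-like or migratory DC-like columns.

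The genes whose levels over the 14 combinations of class and library with at least 50 cells ran most like each member were named by Pearson's r of log2(CPM + 1), as a description only, since the points share libraries and depth. For Pvr they were Nav1 (0.93), Fmnl2 (0.92) and Zc3h12c (0.91), for Nectin2 Phldb1 (0.96), Efnb2 (0.95) and Nfe2l1 (0.94), and for Cd226 they included Synrg and Brf1 (0.95 each). For Cd96 they included Skap1 (0.96) and Gzmb (0.96), genes of T and NK cells. For Cd48 they were Pycard (0.99), Tacc1 (0.98) and Zhx1 (0.98), and for Clec2d they included Stk4 (0.97) and Rassf2 (0.97). For Raet1e they were Ppp1r9a (0.98), Map1b (0.98) and Amotl2 (0.97), of which Amotl2 was on the list of melanoma genes not used to call the cells.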

How the data were processed

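Cells were sorted from pooled tumors, 1 library for control and 1 for NK cell-depleted mice, and the deposited files hold UMI counts per gene and cell that the authors made with Cell Ranger (version 3.0.2 in the file header) after bcl2fastq, on mm10 per the submitters' processing notes. The authors' normalized table of log2(CPM + 1) values was not used, because the upper limits of its cell filter remove most melanoma-like cells. All columns used belonged to a labelled sample.

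Counts were summed per class and library and given as CPM (counts per 1000000). Exact Poisson intervals were computed for levels, exact conditional binomial intervals for ratios and Clopper-Pearson intervals for shares, all at 95%. They cover counting error only, and a count of 0 was set to a floor of 3 UMIs per class and library. A cell with at least 3 markers and at least 50% of a list in more than 1 of the melanoma, myeloid and lymphocyte classes was set apart as a possible doublet, and no doublet caller was run. The computation was tested on simulated counts with known answers. Python 3.11.15, numpy 2.4.6, scipy 1.17.1, pandas 2.3.3 and matplotlib 3.10.9 were used.

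The 9 genes, the marker lists and the list of partner genes were chosen with earlier results of these data known. The melanoma list overlaps the study's own cluster markers. The minimum of 3 markers, the subsets, the companion genes, the cell cycle genes and the motifs were chosen after the values were seen. The genes named were all 9 members, the listed partners that met the 1.5-fold rule in melanoma-like, monocyte/macrophage-like or T-like cells, the highest of each partner group, the direct receptors and adaptors of the members (added after the values were seen), and for 7 members the 3 genes with the highest Pearson's r among 8818 genes with at least 500 UMIs. Some of these genes, and 1 gene of the melanocyte lineage, are not reported here. Alternatives covered the study's upper limits, 1 more marker, a mitochondrial limit of 5%, means over cells, centering on the median gene, thinning to 2000 UMIs, leaving out the 5 cells with most UMIs of a gene, and no filter on low counts.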

Additional observations from a re-analysis of the deposited data

Results flagged for a closer look

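Cd48 differed in opposite directions in T-like and monocyte/macrophage-like cells. Its log2 ratio of control over NK cell-depleted cells was 0.64 in T-like cells (89 and 44 UMIs) and -0.33 in monocyte/macrophage-like cells (2336 and 2933 UMIs), and both counting intervals excluded a ratio of 1. The difference between the classes was not tested, since each group was 1 library.

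Nectin2 was found in cells that no comparison used. The cells set apart for carrying markers of several classes held 50.3 CPM of Nectin2 in the NK cell-depleted library (64 UMIs, 38.7 to 64.2), above the 9.79 in the same kind of cells of the control library (10 UMIs, 4.69 to 18). The median depth of these cells was 31252 and 9433 UMIs, in the same order, and Ulbp1 was 20.4 and 9.79 in them. The part of melanoma RNA in these cells was not tested.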

How the results depend on the processing

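No paired analysis was possible because each group was 1 library, and for the same reason no replicate could be left out. Of 251 recomputed log2 ratios of control over NK cell-depleted cells, 237 stayed within the counting interval of the reported value, 11 left it, and 3 of the ratios whose interval excluded a ratio of 1 changed sign. Ulbp1 in melanoma-like cells, -0.70 as reported, became 1.12 with the study's upper limits and 0.82 after thinning to 2000 UMIs, each from 6 and 7 UMIs, so depth limits both. Clec2d in monocyte/macrophage-like cells, -0.11 as reported, became 0.033 with every subset at the same weight, an alternative chosen after seeing the data. A split outside the 251 concerned Cd226 in monocyte/macrophage-like cells, -0.89 as reported. It became -0.34 among cells with 3 or more companion genes and -0.56 among the others, both outside the counting interval of the reported value. This split was also chosen after seeing the data. The number of members that met the 1.5-fold rule in melanoma-like cells went from 1 to 0 with the upper limits, 0 with the median gene set to a ratio of 1 and 2 with a mitochondrial limit of 5%. In monocyte/macrophage-like cells it went from 1 to 2 with the upper limits, and in migratory DC-like cells from 1 to 0 with the mitochondrial limit of 5% and 0 with the median gene at a ratio of 1. In T-like cells it went from 2 to 1 with 1 more marker required and 0 with the mitochondrial limit of 5%. With no filter on low counts, 1 listed partner gene instead of 0 met the rule in neutrophil-like cells. The cause of these changes in number was not tested.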
